A study of Mus musculus with 12 samples.

Results

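The 7 genes described here are the natriuretic peptide receptors Npr1, Npr2 and Npr3, the soluble guanylyl cyclase subunits Gucy1a1 and Gucy1b1, and the cGMP-dependent protein kinases Prkg1 and Prkg2. They were chosen by symbol from the 32285 genes of the deposited matrices, and all 7 were found. They were also chosen because Npr3 had differed in opposite directions in cold between fat depots in these same libraries, so the cold values of Npr3 are a description and support nothing by themselves.

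Natriuretic peptides are hormones of the heart and vessel wall. NPR1 binds atrial and B-type peptide and NPR2 binds C-type peptide, and both make cGMP inside the cell. NPR3 binds all of these peptides and removes them, without a cyclase domain, and so is known as the clearance receptor. In adipocytes, cGMP made by NPR1 activates the kinase PRKG1, a route known to drive lipolysis and thermogenic genes, and the balance of NPR1 to NPR3 is known to set how strongly fat responds. Nitric oxide makes cGMP through the other enzyme, the dimer of GUCY1A1 and GUCY1B1, best known in vascular smooth muscle and pericytes. PRKG2 is a membrane-bound relative of PRKG1.

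The data are single-nucleus RNA sequencing of 12 libraries of adipose tissue from male C57BL/6J mice on normal chow, with 1 library per group. The depots' names appear in the labels only as abbreviations: mPRAT and iBAT were each sampled at 3 ages (1, 2 and 6 months), lPRAT at the later pair of ages, and iWAT only at 6 months, all at room temperature (RT, 22 °C). Cold libraries came from 6-month mPRAT, iBAT and iWAT after 3 days at 4 °C, and they are set against the same 6-month RT libraries that end the age series. The titles give ages in months and the sample fields give 4, 8 and 16 weeks for the same libraries. No genotype other than the strain is named, and the number of animals behind a library is not stated in the sources used here. A difference between libraries therefore contains animal, dissection and preparation differences, no difference within a depot could be tested, no model with a cold or age effect common to the depots was fitted, and every interval below is a 95% interval for counting error only.

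The libraries held 5461133 to 87035783 UMIs (unique molecules) and 3279 to 21115 nuclei after filters, with medians of 880.0 to 6300.0 UMIs per nucleus. Nuclei were sorted into cell classes by marker genes, and at least 63.8% of the kept nuclei of each library entered a class. All 12 adipocyte markers were detected in adipocyte-gated nuclei of every library. In cold mPRAT 66.0% of barcodes were over the mitochondrial limit, against 22.1% and 21.4% in the 2-month mPRAT and lPRAT libraries and no more than 7.42% elsewhere. Levels are counts per 1000000 UMIs (CPM), the UMIs of a gene divided by all UMIs of the class in that library and scaled, and they were compared between libraries and classes for 1 gene at a time. At most 0.734% of the smaller library's barcodes were shared by any pair of libraries.

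In the mouse genome (GRCm38) Npr3 lies on chromosome 15 from 11839896 to 11907287 on the minus strand, Npr1 on chromosome 3 from 90450591 to 90465866 (minus), Npr2 on chromosome 4 from 43631935 to 43651244 (plus) and Prkg1 on chromosome 19 from 30564489 to 31765033 (minus). Gucy1b1, from 82032006 to 82074689, and Gucy1a1, from 82092427 to 82145789, are neighbours on the minus strand of chromosome 3, and Prkg2 lies on chromosome 5 from 98929773 to 99037351 (minus). Npr1, Npr2, Npr3 and Prkg1 each overlap 1 gene of the matrix on the opposite strand (Gm16048, Gm12473, Gm5144 and Cstf2t), and how reads were assigned there is not given in the sources used here. RefSeq (GRCm38.p6) gave promoters for 6 of the 7 genes. Those of Npr3 and Npr1, the clearance receptor and the cyclase receptor for atrial peptide, are shown 5′ to 3′ on the gene's strand for the 250 bases before the start, with capitals marking the motifs found, read on both strands.
Npr3 (chr15:11907372-11907621, minus): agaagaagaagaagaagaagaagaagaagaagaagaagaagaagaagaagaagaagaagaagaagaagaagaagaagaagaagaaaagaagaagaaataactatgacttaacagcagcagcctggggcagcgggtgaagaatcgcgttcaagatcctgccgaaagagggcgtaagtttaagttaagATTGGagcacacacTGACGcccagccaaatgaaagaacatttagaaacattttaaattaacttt
Npr1 (chr3:90465867-90466116, minus): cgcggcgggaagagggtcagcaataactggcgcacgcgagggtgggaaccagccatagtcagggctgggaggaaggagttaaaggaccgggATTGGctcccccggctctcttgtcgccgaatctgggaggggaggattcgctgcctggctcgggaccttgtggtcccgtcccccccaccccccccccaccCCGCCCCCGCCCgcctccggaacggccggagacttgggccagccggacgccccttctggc
The Npr3 promoter had 38.8% G and C and that of Npr1 70.4%, against a median of 52.4% over 32851 promoters. In Npr3 the cAMP response element core TGACG stood 50 bases and a CCAAT box 64 bases before the start. Npr1 had a pair of GC boxes (GGGCGG), 60 and 54 bases before the start, and a CCAAT box at 159. TGACG was in 17.8% of all promoters, CCAAT in 33.8% and GGGCGG in 32.7%. The full element TGACGTCA (1.55% of promoters), the TATA box TATAAA (12.4%) and a consensus PPAR direct repeat (0.0335%) were in neither. A match of letters is a description and not a binding site.

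Npr3 separated the depots at 6 months and RT. In adipocyte-gated nuclei its level was 118.7 CPM in iBAT (115.7 to 121.7), 265.4 in mPRAT (259.4 to 271.5), 1217 in lPRAT (1200 to 1234) and 1626 in iWAT (1613 to 1639). Each step of this order lay outside the counting intervals of its neighbours. The younger libraries of mPRAT and iBAT were lower still, with 68.2 CPM in mPRAT at 1 month, 50.1 at 2 months, 58.1 in iBAT at 1 month and 41.6 at 2 months. lPRAT at 2 months held 450.3 CPM. The counting intervals of neighbours overlapped among the 1-month mPRAT, 1-month iBAT and 2-month mPRAT libraries, and only there.

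**Figure D1:**
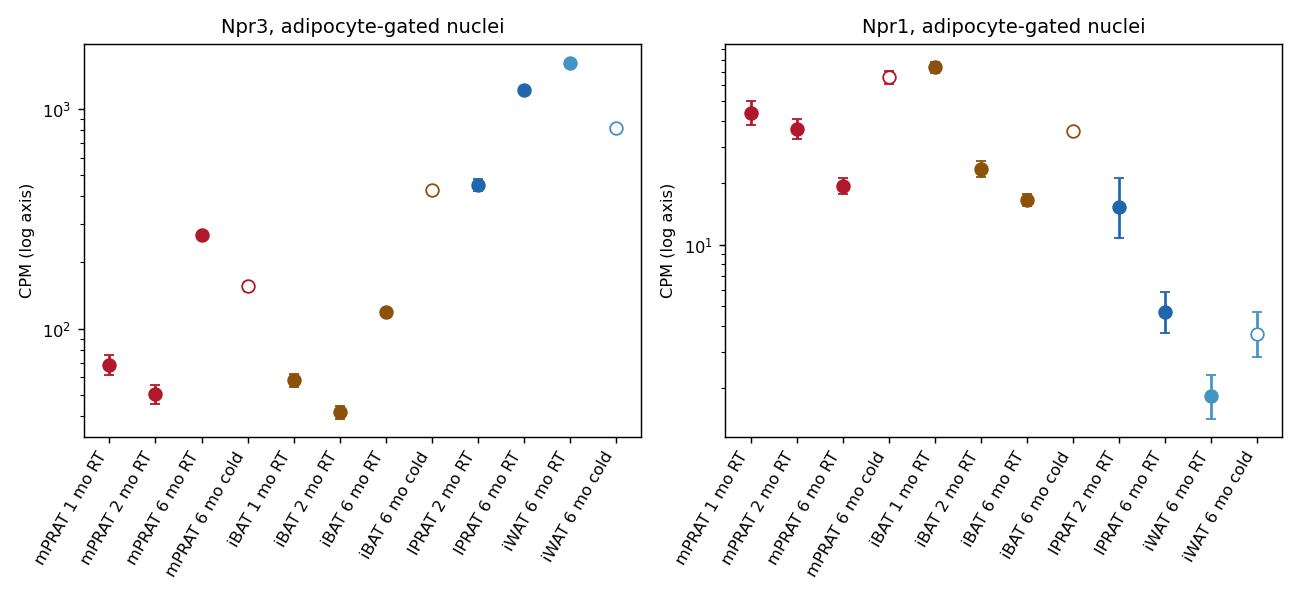
Level of Npr3 (left) and Npr1 (right) in adipocyte-gated nuclei of each library, in CPM on a log axis; bars are exact 95% Poisson intervals, open circles are cold, and colour marks the depot (red mPRAT, brown iBAT, dark blue lPRAT, light blue iWAT). Npr3 is highest in iWAT at RT (1626 CPM), where Npr1 is lowest (1.81 CPM).

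Npr1, the cyclase receptor, had an adipocyte-gated level of 44.1, 36.8 and 19.3 CPM in mPRAT at 1, 2 and 6 months. In iBAT it was 73.4, 23.4 and 16.5 CPM at the same ages. In lPRAT it was 15.3 CPM at 2 months and 4.68 at 6 months, and in iWAT 1.81 at 6 months. Macrophage-gated nuclei, which served as a measure of free RNA, held 27.4 and 20.2 CPM of Npr1 in mPRAT at 1 and 2 months, on 2 counts each. The RT libraries of 6-month mice had macrophage-gated levels of 15.4 (iBAT, 1.86 to 55.6), 12.1 (mPRAT, 4.86 to 24.9), 11.1 (lPRAT) and 8.75 CPM (iWAT), and the 2-month lPRAT library had 32.2. The lPRAT and iWAT adipocyte values were below those levels and are read as background. The adipocyte values of iBAT at 6 months and of mPRAT at 1, 2 and 6 months lay inside the macrophage intervals. These reached 99.0 and 72.9 CPM in mPRAT at 1 and 2 months. At this depth no difference from the macrophage-gated level could be shown. iBAT at 1 and 2 months had fewer than 50 macrophage-gated nuclei and so no macrophage value. Some other mPRAT classes held less Npr1, with 2.51 and 3.06 CPM in epithelial or kidney-gated nuclei at 1 and 2 months. In mPRAT at 6 months and RT, B-gated nuclei held 6.36 CPM and T or NK-gated nuclei 4.31. Endothelial-gated nuclei held at least 86.6 CPM and those of adipose stem and progenitor cells at least 45.5. The adipocyte values were not tested against these classes.

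Npr3 was higher in the 6-month library than in the youngest one of each depot followed. From 1 to 6 months Npr3 was 3.89-fold higher in mPRAT (log2 ratio 1.96, 1.80 to 2.12) and 2.04-fold higher in iBAT (1.03, 0.92 to 1.14). From 2 to 6 months it was 2.70-fold higher in lPRAT (1.43, 1.35 to 1.52). Between 1 and 2 months it was instead lower, by a log2 ratio of -0.45 in mPRAT and -0.48 in iBAT. Npr1 differed by -1.19 (-1.42 to -0.96) in mPRAT and -2.15 (-2.28 to -2.02) in iBAT from 1 to 6 months. The macrophage-gated level of Npr1 in mPRAT was 27.4 CPM at 1 month and 12.1 at 6 months. It rested on 2 and 7 counts, with overlapping intervals (3.32 to 99.0 and 4.86 to 24.9). The part of free RNA in the adipocyte-gated Npr1 values was not tested. Of all genes tested, 9.78% were at least 2-fold higher and 12.2% at least 2-fold lower in mPRAT from 1 to 6 months, and 8.97% and 11.4% in iBAT. Of the members, 1 of 5 tested was higher and 3 were lower in mPRAT, and 1 of 6 higher and 3 lower in iBAT. In lPRAT from 2 to 6 months 1 of 5 was higher and 1 lower, against 15.5% and 10.7% of all genes. The lower ones were Npr1, Gucy1a1 and Prkg1 in mPRAT, and Npr1, Gucy1a1 and Gucy1b1 in iBAT. Adipocyte-gated Prkg1 in mPRAT was below the macrophage-gated level at 1 month (42.9 against 219 CPM) and at 6 months (6.49 against 176 CPM). Gucy1a1 was 2.37 and 0.64 CPM in mPRAT at 1 and 6 months, inside the macrophage intervals. In iBAT at 6 months Gucy1a1 and Gucy1b1 were 0.69 and 0.39 CPM, also inside them. These cyclase levels are read as background. Median depth of an adipocyte-gated nucleus also differed between ages, with 1743 UMIs at 1 month and 6345 at 6 months in mPRAT, and its part in these differences was not tested.

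The number of Npr3 UMIs per Npr1 UMI, a ratio used here only between libraries, was 1.55, 1.36 and 13.7 in mPRAT at 1, 2 and 6 months. It was 0.792, 1.78 and 7.18 in iBAT. In lPRAT it was 29.4 at 2 months (21.2 to 42.0) and 260 at 6 months (208 to 329), and in iWAT at RT 896 (707 to 1154). The last 3 rest on 37, 77 and 68 Npr1 UMIs at background level. Those of mPRAT and of iBAT at 6 months rest on Npr1 levels not shown to exceed the macrophage-gated level. Without nuclei above the 95th percentile of UMIs the mPRAT ratios were 1.20, 1.14 and 7.94 at 1, 2 and 6 months.

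In the cold library Npr3 stood above the RT library in iBAT and below it in iWAT and mPRAT. In iBAT it was 426.3 CPM in cold against 118.7 at RT, a 3.59-fold higher level (log2 ratio 1.85, 1.81 to 1.88). In iWAT it was 820.5 against 1626 CPM (-0.99, -1.01 to -0.96), and in mPRAT 155.8 against 265.4 CPM (-0.77, -0.84 to -0.69). Cold iBAT thus stood above all 4 mPRAT libraries, and cold iWAT was still above every mPRAT and iBAT library. In iBAT 2 of 7 members tested were at least 2-fold higher and 0 lower, against 10.2% and 18.1% of all genes. In mPRAT the counts were 2 of 5 higher and 0 lower against 10.5% and 14.6%, and in iWAT 2 of 6 and 0 against 4.28% and 14.9%. The called genes were Npr1 and Npr3 in iBAT, and Npr1 and Gucy1a1 in the other depots, where Gucy1a1 had 24 and 18 counts (mPRAT, cold and RT) and 12 and 8 (iWAT). These Gucy1a1 levels, 2.17 and 0.64 CPM in mPRAT and 0.68 and 0.21 in iWAT, lay inside the macrophage intervals of the same libraries and are read as background. Over all kept nuclei the mPRAT ratio of Gucy1a1 turned to -0.58. The Npr3 call is among the values the choice of genes used.

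**Figure D2:**
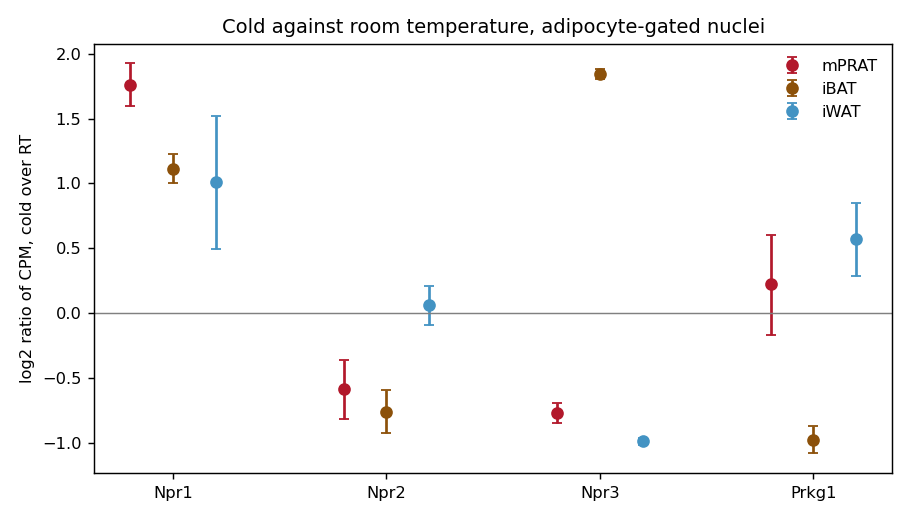
Log2 ratio of CPM, cold over RT, of Npr1, Npr2, Npr3 and Prkg1 in adipocyte-gated nuclei of mPRAT, iBAT and iWAT at 6 months (1 library a side); bars are exact 95% intervals for counting error. Npr1 is above 0 in all 3 depots, in iWAT on levels read as background, while Npr3 is at 1.85 in iBAT and at -0.77 and -0.99 in mPRAT and iWAT.

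The higher RT value of mPRAT rested in large part on few nuclei. In mPRAT at 6 months and RT, 189 nuclei above the 95th percentile of UMIs held 15.0% of all adipocyte-gated UMIs and 45.3% of the Npr3 UMIs. Their level was 801.3 CPM (774.5 to 829), against 170.9 in the other 3588 nuclei. In cold mPRAT the 111 nuclei above that percentile had 89.2 CPM and the other 2106 had 166.1. Without the deepest nuclei the cold difference in mPRAT was -0.041 on the log2 scale, and the counting intervals of its sides overlapped (158.1 to 174.5 CPM in cold, 165.7 to 176.2 at RT), while in iBAT it was 1.90 and in iWAT -1.17. A higher Npr3 level in the deepest nuclei was found in 11 of the 12 libraries, cold mPRAT being the exception. In cold iWAT the deepest nuclei had 1710 CPM against 639.2 in the rest and held 35.3% of the Npr3 UMIs, and in iBAT they had 93.9 against 31.5 at 2 months and 109.5 against 49.2 at 1 month. The deep nuclei of 6-month mPRAT at RT had less Ucp1, the uncoupling protein of thermogenic fat (62.8 against 212.0 CPM), and less Npr1 (6.90 against 21.5 CPM). Neither was particular to that library. Npr1 was lower in the deepest nuclei of every library, as in cold mPRAT (40.6 against 69.3 CPM). Ucp1 was lower there in all mPRAT and iBAT libraries except iBAT at 6 months and RT (430.2 against 425.9 CPM). In the deep nuclei of 6-month mPRAT at RT, markers of other cell classes made up 8.56% of marker UMIs, against 7.39% in the rest. This split was made after the data were seen.

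**Figure D3:**
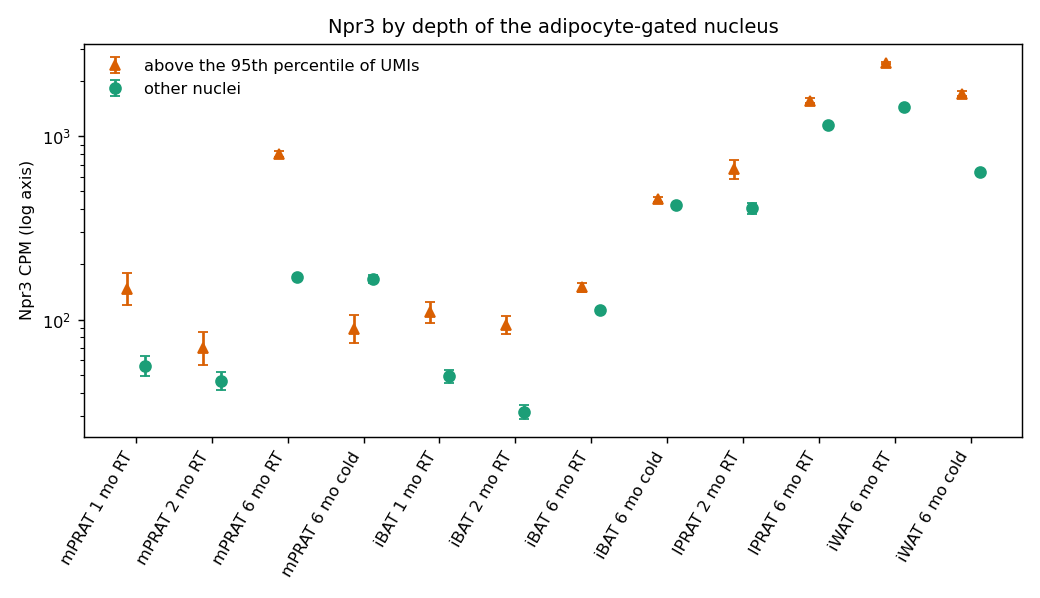
Npr3 CPM (log axis) in adipocyte-gated nuclei above the 95th percentile of UMIs (triangles) and in the other nuclei (circles) of each library; bars are exact 95% Poisson intervals. In mPRAT at 6 months the triangles stand at 801.3 CPM at RT and at 89.2 in cold, while the circles stand at 170.9 and 166.1.

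The share of nuclei with Npr3 did not differ in mPRAT beyond counting error. After each nucleus was thinned to 1000 UMIs, 10.4% of adipocyte-gated nuclei had an Npr3 UMI in mPRAT at RT (9.46 to 11.4) and 10.8% in cold (9.53 to 12.2), whereas 29.5% and 26.1% did so unthinned. In iBAT the thinned share was 8.99% at RT and 26.0% in cold (18.8% and 64.8% unthinned), and in iWAT 54.5% and 28.3% (81.0% and 51.0% unthinned). Thinning left out 16 and 81 shallower nuclei in mPRAT, 2026 and 71 in iBAT and 120 and 41 in iWAT. Median depths of adipocyte-gated nuclei, RT and cold, were 6345 and 4458 UMIs in mPRAT, 2282.5 and 6756 in iBAT and 6569 and 4762 in iWAT, and those of macrophage-gated nuclei 2321 and 1626, 866 and 2184, and 1670.0 and 1042. Macrophage-gated nuclei with an Npr3 UMI were 0 of 201 and 1 of 131 in mPRAT at RT and in cold, the first allowing up to 1.49% (for a share of 0, the limit is set at 3 nuclei). They were 0 of 53 (allowing up to 5.66%) and 14 of 179 (7.82%, 4.34 to 12.8) in iBAT, and 23 of 233 and 1 of 207 in iWAT. In iWAT the share in macrophage-gated nuclei was thus lower in cold, as in adipocyte-gated nuclei. In iBAT a difference in the thinned share was not detectable at this depth. Summed over all macrophage-gated nuclei of iBAT, Npr3 had 21 counts in cold (42.1 CPM, 26.0 to 64.3). At RT it had 0 counts (up to 28.4 CPM), so the higher value was in cold, as in adipocyte-gated nuclei. The macrophage-gated Npr3 level was 9.87% of the adipocyte-gated one in cold iBAT and 5.92% in iWAT at RT. With it subtracted the cold log2 ratios were 1.70 and -0.92. In iWAT at RT other classes held more Npr3 than the 96.3 CPM of macrophage-gated nuclei. These were 163.6 CPM in B-gated and 116.9 in T or NK-gated nuclei, and their levels were not subtracted.

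In cold, Npr1 was higher in mPRAT and iBAT and at background level in iWAT. In mPRAT it was 65.5 CPM in cold against 19.3 at RT (3.39-fold, log2 ratio 1.76, 1.60 to 1.92). In iBAT it was 35.7 against 16.5 (2.16-fold, 1.11, 1.00 to 1.22). Both RT values lay inside the macrophage intervals, and with the macrophage-gated level subtracted the log2 ratios were 3.03 and 3.94, so the size of the fold depends on a background of few counts. In iWAT it was 3.65 against 1.81, on 64 and 68 counts, and both values were below the macrophage-gated levels of 4.16 and 8.75. Macrophage-gated Npr1 was 6.57 CPM in cold mPRAT and 12.1 at RT, and the summed endothelial markers in adipocyte-gated nuclei were 237 CPM in cold and 248 at RT there. In the same mPRAT nuclei 3 other marker lists were higher in cold than at RT, at 113 against 9.88 CPM for epithelial or kidney, 46.1 against 27.2 for adrenal cortex, whose gated nuclei held 205.6 CPM of Npr1 in cold, and 18.5 against 3.57 for mesothelial. The remaining lists were lower, and the part of these cells in the Npr1 values was not tested. In iBAT macrophage-gated Npr1 was 18.0 CPM in cold and 15.4 at RT, the endothelial markers summed to 171 and 334 CPM, and of the lists of other classes only that of smooth muscle was higher in cold (7.49 against 5.29). The Npr3 to Npr1 ratio was 5.77-fold lower in cold than at RT in mPRAT (2.38 against 13.7), and 1.66-fold higher in iBAT (11.9 against 7.18). The RT ratios rest on Npr1 levels not shown to exceed the macrophage-gated level. With the macrophage-gated levels of both genes subtracted, the ratio was lower in cold in iBAT too (21.7 against 102.4), so its direction there depends on the background, and in mPRAT it was 2.59 against 35.7. Without the deepest nuclei the mPRAT ratio was 3.32-fold lower (2.40 against 7.94). In iWAT the ratio was 3.99-fold lower, with an Npr1 level over all adipocyte-gated nuclei read as background on both sides. That reading was made over all adipocyte-gated nuclei and not for the 88 cold iWAT nuclei with a Ucp1 UMI, split below. They held 30.0 CPM of Npr1 (14.96 to 53.6, 11 counts). The macrophage interval of 0.503 to 15.01 overlapped theirs at its edge. The part of RNA from other cells in these 88 nuclei was not tested.

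Adipocyte-gated nuclei were split, after the data were seen, by whether 1 or more Ucp1 UMIs remained after thinning. A nucleus without one may still express Ucp1, and a nucleus with one may hold free RNA, so the groups are ranges and not types. Macrophage-gated Ucp1 at 6 months, RT and cold, was 53.8 and 176 CPM in iBAT and 15.5 and 23.0 in mPRAT. The part of free Ucp1 RNA in the split was not tested. In mPRAT at 6 months and RT, Npr3 was 111.9 CPM in the 540 nuclei with a Ucp1 UMI and 286.7 in the 3221 without (log2 ratio -1.36, -1.51 to -1.21). The deepest nuclei weigh on the second value, and without them Npr3 was 109.6 and 180.6 CPM (-0.72, -0.88 to -0.56). Npr1 was 34.5 against 17.2 CPM in all nuclei of this split (1.00, 0.69 to 1.30). In cold mPRAT the order of Npr3 was the other way, with 193.3 CPM in nuclei with Ucp1 and 131.5 in those without (0.56, 0.42 to 0.69), and Npr1 was 65.8 and 63.4 CPM. In iBAT at 6 months Npr3 was 116.7 and 120.6 CPM at RT and 435.4 and 401.9 in cold, so its higher level in cold was present in both ranges. In the younger iBAT libraries nuclei with Ucp1 had less Npr3, with 44.5 against 65.0 CPM at 1 month (-0.55, -0.83 to -0.27) and 24.5 against 51.7 at 2 months (-1.08, -1.35 to -0.81; -0.63 without the deepest nuclei). In mPRAT it was 34.0 against 54.0 CPM at 2 months (-0.67, -1.18 to -0.19), and without the deepest nuclei the interval held 0. In cold iWAT the 88 nuclei with a Ucp1 UMI had 373.2 CPM of Npr3 against 830.4 in the other 2678, and 30.0 CPM of Npr1 (15.0 to 53.6, 11 counts) against 3.09. Without the deepest nuclei Npr3 in cold iWAT was 391.6 against 645.4 CPM (-0.72, -0.97 to -0.48).

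**Figure D4:**
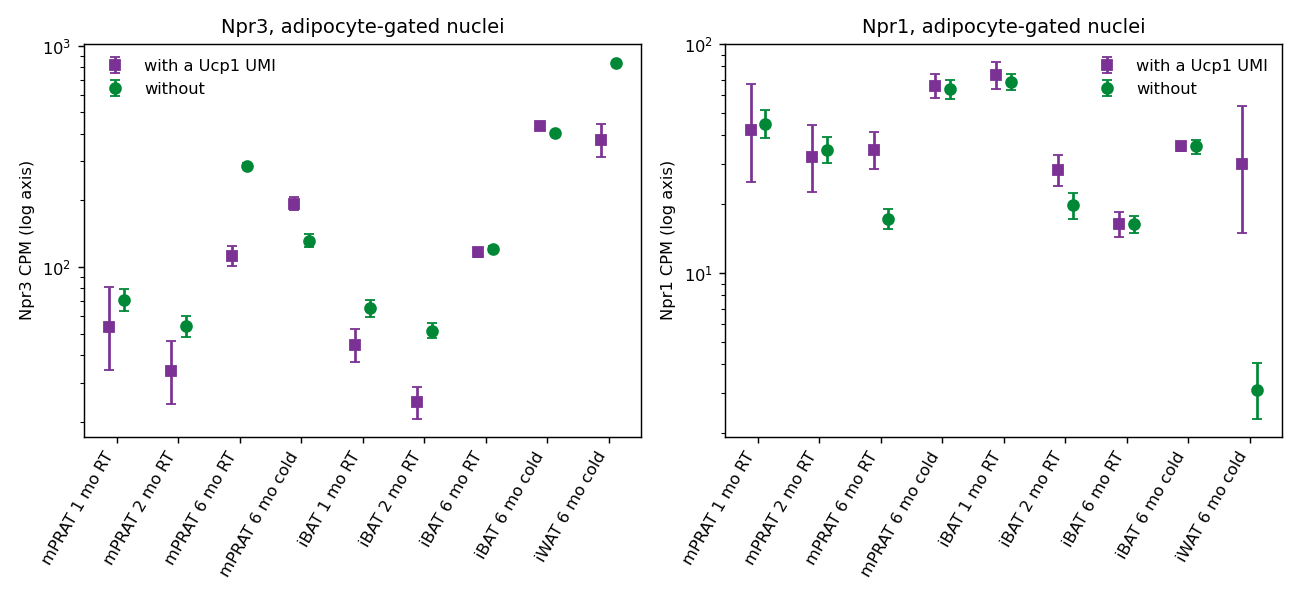
Npr3 (left) and Npr1 (right) CPM on log axes in adipocyte-gated nuclei with (squares) and without (circles) a Ucp1 UMI after thinning to 1000 UMIs, in the libraries with at least 50 nuclei of each; bars are exact 95% Poisson intervals. In cold iWAT Npr1 is 30.0 CPM with and 3.09 without, and Npr3 373.2 and 830.4.

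Npr2, the receptor for C-type peptide, had a narrower range. In adipocyte-gated nuclei it was 17.4, 17.0 and 27.8 CPM in mPRAT at 1, 2 and 6 months and 18.5 in cold, and 9.57, 12.2 and 12.3 in iBAT and 7.28 in cold. lPRAT had 43.8 CPM at 2 months and 75.2 at 6 months, the highest of the 12, and iWAT 29.6 at RT and 30.9 in cold. Macrophage-gated nuclei had at most 4.16 CPM, on no more than 2 counts a library. The adipocyte values of mPRAT at 1 and 2 months and of iBAT at 6 months at RT and in cold lay inside the macrophage intervals. These reached 50.6, 37.2, 28.4 and 14.5 CPM, so no difference from the macrophage-gated level could be shown there. In cold Npr2 differed by -0.58 (-0.81 to -0.36) in mPRAT and -0.76 (-0.92 to -0.59) in iBAT, the latter between values inside those intervals, and in iWAT the interval of 0.06 held 0 (-0.09 to 0.21). Nuclei with a Ucp1 UMI had less Npr2 than those without in mPRAT at 6 months, by -1.47 at RT and -1.58 in cold. They also had less in mPRAT at 2 months (-1.85) and in cold iWAT (-1.94, on 3 counts with Ucp1). In iBAT it was -0.76 at 2 months, and -0.33 at RT and -0.56 in cold at 6 months. At 1 month the interval held 0 in mPRAT and in iBAT. Endothelial-gated nuclei held 86.6 to 359 CPM of Npr1, 24.7 to 166 of Npr2 and 24.7 to 327 of Npr3 over 11 libraries. In mPRAT at 2 months the 24.7 CPM of Npr2 and of Npr3, and at 1 month the 37.8 CPM of Npr3, lay inside the macrophage intervals of those libraries.

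In the endothelial gate Npr3 also differed in cold, with 113.3 against 60.05 CPM in iBAT (log2 ratio 0.92, 0.23 to 1.66) and 139.9 against 326.8 in iWAT (-1.22, -1.75 to -0.71). In mPRAT it was 131.6 and 154.4, with an interval that held 0. Adipocyte markers in these nuclei summed to 3241 CPM in cold iBAT and 2648 at RT, and to 1911 and 2539 in iWAT, so they moved with the Npr3 values, and their part was not tested. In the gate for adipose stem and progenitor cells (ASPC), Npr3 was 47.5 CPM in cold iBAT and 76.0 in iWAT at RT, close to or below the macrophage-gated 42.1 and 96.3 of the same libraries, and is read as background. Npr1 was 45.5 to 197 CPM in ASPC-gated nuclei over the 12 libraries, with the highest value in lPRAT at 6 months and the lowest in cold iBAT. Its values in mPRAT at 1 and 2 months (93.6 and 61.3) and in iBAT at 6 months and RT (53.6) lay inside the macrophage intervals of those libraries. Adrenal-cortex-gated nuclei of cold mPRAT had 205.6 CPM of Npr1 (71 nuclei), where atrial peptide is known to act on the zona glomerulosa. Pericyte-gated nuclei of iBAT had 137.0, 241.5 and 241.4 CPM of Npr3 at 1, 2 and 6 months.

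Prkg1, the kinase that carries the cGMP signal, had its highest levels outside adipocytes. Pericyte-gated nuclei of iBAT held 12638, 10915 and 13869 CPM at 1, 2 and 6 months (119, 106 and 60 nuclei). ASPC-gated nuclei held 688 to 2800 CPM, endothelial-gated nuclei 85.7 to 601 and macrophage-gated nuclei 48.3 to 405. Adipocyte-gated nuclei held 6.49 to 58.7 CPM, and B-gated and T or NK-gated nuclei 5.75 to 28.8, so that several adipocyte values were at the level of lymphocytes. With 10 to 49 nuclei, Schwann-gated nuclei had 3793 to 4783 CPM and smooth muscle-gated nuclei 2018 to 3259.

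**Figure D5:**
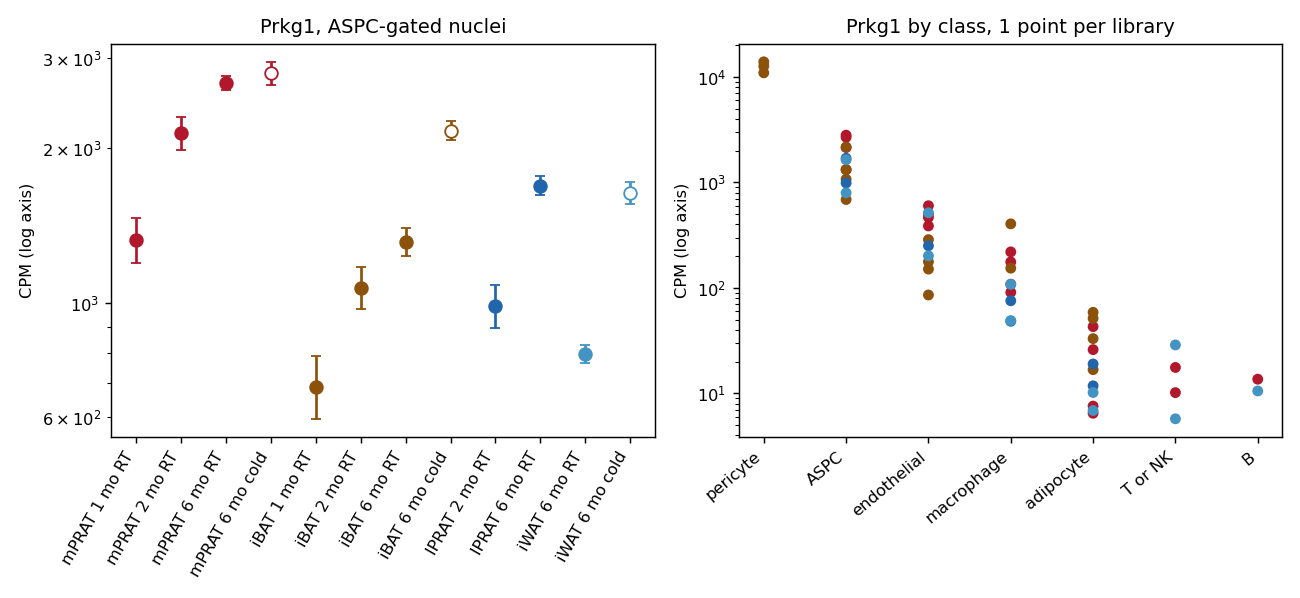
Left, Prkg1 in ASPC-gated nuclei of each library, in CPM on a log axis with exact 95% Poisson intervals and open circles for cold; right, Prkg1 by class with 1 point per library of at least 50 nuclei (red mPRAT, brown iBAT, dark blue lPRAT, light blue iWAT). Pericyte-gated points lie at 10915 to 13869 CPM, ASPC-gated points at 688 to 2800.

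In ASPC-gated nuclei Prkg1 was higher at the later age in each depot. It was 1324, 2139 and 2675 CPM in mPRAT at 1, 2 and 6 months and 688, 1070 and 1315 in iBAT, and 987 and 1692 in lPRAT at 2 and 6 months. The log2 ratio of 6 over 1 months was 1.02 (0.86 to 1.17) in mPRAT and 0.94 (0.71 to 1.16) in iBAT, and that of 6 over 2 months 0.78 (0.63 to 0.93) in lPRAT. In cold it was 2800 CPM in mPRAT (0.07, -0.02 to 0.15), 2163 in iBAT (0.72, 0.61 to 0.83) and 1638 against 795 in iWAT (1.04, 0.95 to 1.13). Pericyte markers in the same nuclei summed to 125 and 144 CPM in mPRAT at 1 and 6 months, 363 and 213 in iBAT, 53.0 and 111 in lPRAT, and 210 and 262 in iWAT at RT and in cold. They were 184 in cold iBAT. The marker sums were thus lower at 6 months and in cold in iBAT and higher at the later age or in cold in the mPRAT, lPRAT and iWAT pairs given, and their part was not tested. After thinning, 280 of 700 ASPC-gated nuclei had a Prkg1 UMI in iWAT at RT and 221 of 373 in cold.

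In adipocyte-gated nuclei Prkg1 went the other way with age, at 42.9, 26.0 and 6.49 CPM in mPRAT and 58.7, 51.4 and 33.1 in iBAT. In lPRAT it was 19.0 CPM at 2 months and 11.8 at 6 months, a direction that turned in nuclei with at least 1000 genes. Cold iBAT had 16.8 CPM, -0.98 from RT (-1.08 to -0.87), cold mPRAT 7.59 and cold iWAT 10.2 against 6.88 at RT. The iWAT ratio of 0.57 turned to -0.30 with a stricter gate, and that of 2 over 1 months in iBAT from -0.19 to 0.089 as a mean over nuclei. Summed ASPC markers in the same nuclei were 354 CPM in mPRAT at 1 month and 230 at 6 months. In iBAT they were 237, 137 and 41 at 1 month, 6 months and cold. Between these libraries they moved with Prkg1, but the 2-month libraries are not included in that statement. Summed pericyte markers in adipocyte-gated nuclei were 20.9 to 138 CPM over the 12 libraries. The part of ASPC and pericyte RNA in the Prkg1 values was not tested. Macrophage-gated Prkg1 was above the adipocyte-gated value in every library with at least 50 macrophage-gated nuclei.

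The cyclase subunits had their highest levels, among classes with at least 50 nuclei, in pericyte-gated nuclei, which in iBAT held 391.5, 407.1 and 374.2 CPM of Gucy1a1 and 332.7, 386.4 and 156.9 of Gucy1b1 at 1, 2 and 6 months. Adipocyte-gated nuclei held at most 4.31 CPM of Gucy1a1 and 1.60 of Gucy1b1. In ASPC-gated nuclei of iWAT Gucy1a1 was 49.4 CPM in cold and 17.0 at RT (log2 ratio 1.54, 0.94 to 2.13), and Gucy1b1 49.4 and 32.7 (0.60, 0.07 to 1.10). Prkg2 was 1.99 to 86.8 CPM in ASPC-gated nuclei, 20.7 to 39.1 in pericyte-gated nuclei of iBAT (11 counts over 3 libraries) and at most 1.65 in adipocyte-gated nuclei. The 86.8 CPM was in iBAT at 2 months, against 15.7 at 6 months.

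Of 46 other genes of the pathway, 5 of 28 tested were at least 2-fold higher in cold mPRAT adipocyte-gated nuclei and 1 lower, 5 of 35 higher and 8 lower in iBAT, and 4 of 31 higher and 3 lower in iWAT, beside the shares of all genes given above. Their median log2 ratios were 0.00, -0.31 and 0.26, against -0.06, -0.13 and -0.24 over all genes tested. Between 1 and 6 months 2 of 29 were higher and 8 lower in mPRAT, and 5 of 34 higher and 7 lower in iBAT, and in lPRAT from 2 to 6 months 3 of 28 were higher and 4 lower. Peptide ligands were near 0, with at most 6 UMIs of Nppa, Nppb or Nppc in any of these libraries. Among phosphodiesterases, which break down cGMP, Pde10a was 27.1 CPM in cold against 4.64 in mPRAT and 47.9 against 7.37 in iBAT. Pde2a, which cGMP activates, was 1.80 against 14.4 CPM in iBAT and 2.91 against 18.4 in iWAT. Pde1a was 106 against 319 CPM in iBAT. Pde1b was 1.08 against 5.56 CPM in mPRAT and 0.53 against 2.51 in iBAT, and Pde5a 4.28 against 1.44 in iWAT. Abcc5, a cyclic nucleotide exporter, was 49.4 against 172 CPM in iBAT.

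Ide, a protease that degrades natriuretic peptides as well as insulin, was 2.42-fold higher in cold mPRAT and 2.81-fold higher in iBAT, and Furin, a proprotein convertase, 2.18-fold higher in mPRAT. Nos3, endothelial nitric oxide synthase, was 75.3 CPM in cold against 28.8 in iWAT. Nos1 had 10 counts in cold against 16 at RT in iBAT. In iWAT it had 3 against 21, with an interval of the log2 ratio that held 0 (-4.10 to 0.03). Rgs2, a target of the kinase, differed in opposite directions, with 36.2 against 110.2 CPM in iBAT and a 3.99-fold higher level in cold iWAT. Ucp1 was 3.77-fold higher in mPRAT, 3.43-fold in iBAT and 38.5-fold in iWAT, and Ppargc1a, a coactivator of thermogenic genes, 2.42-fold in mPRAT. Mapk14, the kinase p38, was 2.06-fold higher in iBAT. Mrvi1, a kinase target at the calcium store, was 1.09 against 3.68 CPM in iBAT, and Gucy2f had 2 against 44 counts there. Pln, a calcium pump regulator, differed in opposite directions, with 34 against 8 counts in iBAT and 2 against 21 in iWAT. The part of free RNA in the levels of these pathway genes was not tested.

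Across the 12 libraries, the genes whose log2 level in adipocyte-gated nuclei was most like that of Npr3 were Rgl1 (Pearson r = 0.97), Tanc2 (0.96), Lpgat1 (0.95), Stambpl1 (0.95) and Magi1 (0.95), of 6440 ranked. Rgl1 was 41.7 CPM in iBAT at 6 months and 117.9 in cold, 64.9 and 78.6 in mPRAT and 185.9 and 175.3 in iWAT. Magi1 was 87.6 CPM in iBAT at 6 months and 140.5 in cold, 192.3 and 157.4 in mPRAT and 488.6 and 389.4 in iWAT. Lpgat1, an acyltransferase of phospholipid synthesis, was 149.6 and 323.2 CPM in iBAT, 416.2 and 306.0 in mPRAT and 909.5 and 1053 in iWAT. Among the members r with Npr3 was -0.81 for Npr1, 0.65 for Npr2 and -0.76 for Prkg1. The points share depot, age and depth, and these values are a description.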

How the data were processed

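Nuclei had been isolated, sorted with 7-AAD and run on a 3′ kit, per the labels' protocols. The deposited files hold UMI counts per gene and nucleus, made by the authors with Cell Ranger 7.0.0 on mm10, per the submitters' processing notes. The annotation and whether introns were counted are not given in the sources used here. Kept nuclei had a minimum of 500 UMIs and 300 genes, with mitochondrial UMIs no more than 10%. A nucleus entered one of 14 classes with at least 3 UMIs from at least 2 of the class's markers making up at least 70% of all marker UMIs. No doublet caller was run; that 70% limit removes mixed nuclei in part.

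Counts were summed per class and library with at least 50 nuclei. Intervals are exact (Poisson for CPM, conditional binomial for ratios, Clopper-Pearson for shares) and cover counting error only. With 1 library per group no test was made. A gene was compared with a 2-fold limit where the libraries set side by side held 20 counts or more together, with zeros set to 3 counts. The interval script was tested on simulated data. Named were all members, pathway genes past 2-fold in cold and the 5 genes with the highest Pearson r to Npr3. Members and lists were chosen with earlier results of these data known. Scaling was repeated with edgeR 4.0.16 and DESeq2 1.42.0. Of 32285 gene identifiers, 32158 matched GENCODE M21.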

Additional observations from a re-analysis of the deposited data

Results flagged for a closer look

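Several genes differed in opposite directions in a pair of depots, with 1 library a side. None of these differences between depots was tested. The values are the log2 ratio in the first depot minus that in the second. For Npr3 in adipocyte-gated nuclei, cold over RT, the gap was 2.61 between iBAT and mPRAT and 2.83 between iBAT and iWAT; these values are among those the choice of genes used. Without the deepest nuclei the mPRAT ratio was -0.041.

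In ASPC-gated nuclei the gap for Npr3 in cold was 5.69 between iBAT and iWAT, at levels close to or below those of macrophage-gated nuclei. In endothelial-gated nuclei it was 2.14 between iBAT and iWAT. For Npr1 in ASPC-gated nuclei, 6 over 2 months, the gap was 2.22 between lPRAT and iBAT.

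Prkg1 in cold gave a gap of 1.54 between iWAT and iBAT in adipocyte-gated nuclei and of 2.28 in endothelial-gated nuclei. The adipocyte-gated iWAT ratio turned to -0.30 with a stricter gate. In endothelial-gated nuclei, pericyte markers summed to 420 CPM in iBAT at RT and 177 in cold, and to 14 and 11 in iWAT. Their part in the Prkg1 values was not tested. Gucy1a1 in adipocyte-gated nuclei gave gaps of 2.61 between mPRAT and iBAT and 2.53 between iWAT and iBAT, on 8 to 35 counts a library and at levels inside the macrophage intervals. The mPRAT ratio turned to -0.58 over all kept nuclei.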

How the results depend on the processing

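No paired analysis was made. Each group has 1 library, so leaving a library out ends its comparison. Pairing cold with RT by depot was possible, but no effect common to the depots was fitted. Of 673 recomputed values 536 were labelled as unchanged, 131 as moved and 6 as changed in sign. A ratio was unchanged if it stayed inside its main counting interval. A change of sign was counted only where that interval excluded 0, so other ratios may have changed sign uncounted. Counts of genes have no such interval and were judged by a fixed fold limit. The cause was not tested for any of these values. The cold log2 ratio of Npr3 kept its sign under all 33 alternatives, of which 16 moved it by more than its counting interval. In mPRAT it was -0.16 as a mean over nuclei, -0.49 with a stricter gate, -0.041 without nuclei of the highest UMIs (where the sides' intervals overlapped, so that sign says nothing) and -0.55 over all kept nuclei. In iBAT it was 2.12 with TMM, 2.03 with DESeq2 size factors, 1.89 as a mean over nuclei, 1.89 with a stricter gate, 1.90 without nuclei of the highest UMIs and 1.70 with the macrophage level subtracted. In iWAT the same 6 settings gave -0.86, -0.77, -1.03, -0.90, -1.17 and -0.92. The shift of every ratio was 0.27 (iBAT) and 0.13 (iWAT) under TMM, and 0.18 and 0.22 under DESeq2. Without a mitochondrial limit mPRAT gave -0.79.

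With no minimum count, and no fold where both counts were 3 or fewer, the pathway and member genes at least 2-fold lower in cold were 4 in mPRAT and 5 in iWAT (1 and 3 with the minimum). At 100 counts 1 was lower in iWAT. Changes of sign are listed only for ratios whose counting interval excluded 0. They were Gucy1a1 in cold mPRAT over all kept nuclei (-0.58), Prkg1 in cold iWAT with a stricter gate (-0.30), Prkg1 at 2 over 1 months in iBAT as a mean over nuclei (0.089), Prkg1 at 6 over 2 months in lPRAT with at least 1000 genes (0.41), and with a looser gate Prkg1 in mPRAT over lPRAT (0.31) and lPRAT over iWAT (-0.013).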
